A study of Arabidopsis thaliana with 4 samples.

Results

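The 362 regions described here are the H3K4me3 loop anchors of *Arabidopsis* at which the *myc2* mutant had the fewest tags relative to the wild-type. They were selected on the measured values themselves: an anchor with the same coordinates in the loop lists of both genotypes, at least 300 tags in Col-0, and a number of tags in *myc2* divided by that in Col-0, with no scaling, below 0.608. Of 15694 anchors used by any loop, 14505 had the shared coordinates and the tags, and 362 of these, or 2.50%, also had the low ratio. They are called low-ratio anchors below, and the ratio of *myc2* to Col-0 tags is called the tag ratio.

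The study mapped chromatin loops by H3K4me3 ChIA-PET in the aerial part of 2-week-old seedlings of the *myc2* mutant and of wild-type accession Columbia (Col-0), both grown at 22 °C with 16 h of light and 8 h of dark. The allele of *myc2* is not given in the sources used here. Both replicates of a genotype (2 each) went into a single deposited list, and no value below therefore has a replicate check. The comparison addresses which loops and anchors differ when the transcription factor MYC2 is mutated. The *myc2* list held 32312 loops with at least 5 PETs each and the Col-0 list held 36723 loops with at least 10 PETs each.

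H3K4me3 is a histone mark that lies over the first part of transcribed genes. ChIA-PET pulls down chromatin that carries the mark, joins DNA ends that lie close to each other and reads each junction as a paired-end tag (PET), so that an anchor with more of the mark gives more tags and anchors in contact are joined by PETs. MYC2 is a basic helix-loop-helix transcription factor of jasmonate signalling that binds the G-box, CACGTG, and related sequences.

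The sequences upstream of the genes on which the results turn are shown first, because the binding sequence of MYC2 is known. They are the 200 bases before the annotated gene start, from the RefSeq annotation TAIR10.1, on the strand of the gene. Capitals mark matches on either strand to the G-box CACGTG, its variant CACATG, the telo box AAACCCTA, the site II words TGGGCC and TGGGCT, and the TATA word TATAAA. None of the 7 windows held a G-box, and among the 352 genes assigned to low-ratio anchors 5.40% had one in this window (19 genes, 95% Wilson interval 3.48 to 8.28%), against 6.47% of the 13979 genes of all anchors tested.
MYC2 upstream, chr1:11801408-11801607, minus strand: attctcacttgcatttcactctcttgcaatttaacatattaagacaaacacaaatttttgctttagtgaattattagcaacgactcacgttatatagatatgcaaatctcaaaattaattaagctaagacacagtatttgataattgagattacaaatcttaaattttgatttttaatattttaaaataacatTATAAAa
AT1G32700 upstream, chr1:11827159-11827358, plus strand: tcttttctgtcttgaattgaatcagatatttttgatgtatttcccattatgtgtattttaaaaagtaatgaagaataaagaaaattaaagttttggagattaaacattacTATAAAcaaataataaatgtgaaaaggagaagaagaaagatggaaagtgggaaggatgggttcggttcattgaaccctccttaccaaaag
AT2G03280 upstream, chr2:998456-998655, minus strand: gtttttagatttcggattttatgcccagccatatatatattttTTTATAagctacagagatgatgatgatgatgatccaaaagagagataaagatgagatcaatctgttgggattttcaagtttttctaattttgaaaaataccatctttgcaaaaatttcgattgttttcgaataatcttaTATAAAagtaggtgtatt
AT2G03310 upstream, chr2:1007187-1007386, minus strand: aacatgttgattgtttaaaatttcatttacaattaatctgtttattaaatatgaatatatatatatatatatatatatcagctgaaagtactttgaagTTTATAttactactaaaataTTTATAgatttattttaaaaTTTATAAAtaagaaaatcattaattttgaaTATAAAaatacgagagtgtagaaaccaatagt
ABF4 upstream, chr3:6686842-6687041, plus strand: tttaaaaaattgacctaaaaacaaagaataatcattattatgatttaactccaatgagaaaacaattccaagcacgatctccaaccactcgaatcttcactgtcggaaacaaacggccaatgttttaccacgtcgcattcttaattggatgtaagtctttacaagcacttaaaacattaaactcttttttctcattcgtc
ABI2 upstream, chr5:23086922-23087121, plus strand: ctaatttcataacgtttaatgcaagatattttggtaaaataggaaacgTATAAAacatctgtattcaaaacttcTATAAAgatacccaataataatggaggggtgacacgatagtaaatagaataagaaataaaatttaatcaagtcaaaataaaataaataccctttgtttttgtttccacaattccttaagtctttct
PYL5 upstream, chr5:1608788-1608987, plus strand: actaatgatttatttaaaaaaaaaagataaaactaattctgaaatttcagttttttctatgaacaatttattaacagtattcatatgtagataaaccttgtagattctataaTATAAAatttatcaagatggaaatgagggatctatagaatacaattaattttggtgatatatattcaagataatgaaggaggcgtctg

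The middle 150 bases are shown for the anchor with the lowest tag ratio and for the anchor within MYC2. They are followed by 150 bases around the only G-box of the AT1G67750 and AT5G21940 anchors, which are among the 15 lowest. All 4 windows hold coding sequence or, for part of the first, intron, and are printed on the plus strand with the same capitals.
AT2G03330 anchor, chr2:1013383-1013532, plus strand: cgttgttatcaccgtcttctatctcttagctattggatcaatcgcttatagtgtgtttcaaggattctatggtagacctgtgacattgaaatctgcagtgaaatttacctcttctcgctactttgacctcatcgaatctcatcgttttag
MYC2 anchor, chr1:11799961-11800110, plus strand: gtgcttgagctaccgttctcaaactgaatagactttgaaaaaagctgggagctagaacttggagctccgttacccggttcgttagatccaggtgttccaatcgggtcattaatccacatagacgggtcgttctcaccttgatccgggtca
AT1G67750 anchor, chr1:25402327-25402476, plus strand: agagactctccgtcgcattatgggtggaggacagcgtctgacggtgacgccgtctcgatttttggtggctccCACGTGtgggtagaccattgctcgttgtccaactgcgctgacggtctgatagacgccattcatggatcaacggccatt
AT5G21940 anchor, chr5:7249718-7249867, plus strand: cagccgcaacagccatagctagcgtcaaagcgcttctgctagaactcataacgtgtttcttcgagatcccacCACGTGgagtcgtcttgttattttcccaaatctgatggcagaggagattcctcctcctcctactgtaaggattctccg

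Low-ratio anchors had a median of 452 tags in *myc2* and 802 in Col-0, against 1207 in *myc2* and 1546 in Col-0 for the 14143 other anchors tested. Their tag ratio ranged from 0.341 to 0.608 with a median of 0.580, as the rule fixed. The other anchors had a median of 0.778. All anchors tested together had a median of 0.775, so a ratio under 1 was the usual state of an anchor in these lists, and library depth and H3K4me3 level cannot be told apart in it. The 5 members just inside the limit had ratios of 0.6073 to 0.6076 and the 5 anchors just outside had 0.6081 to 0.6089. RPA2, a subunit of the single-stranded DNA binding protein, was the last inside with 288 tags in *myc2* and 474 in Col-0, and an intergenic anchor on chromosome 2 was the first outside with 526 and 865. PRK, the Calvin cycle enzyme phosphoribulokinase, was also just outside, with 1617 tags in *myc2* and 2658 in Col-0. The anchors on either side of the limit thus did not differ beyond counting error, and the group has no natural edge.

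**Figure D1:**
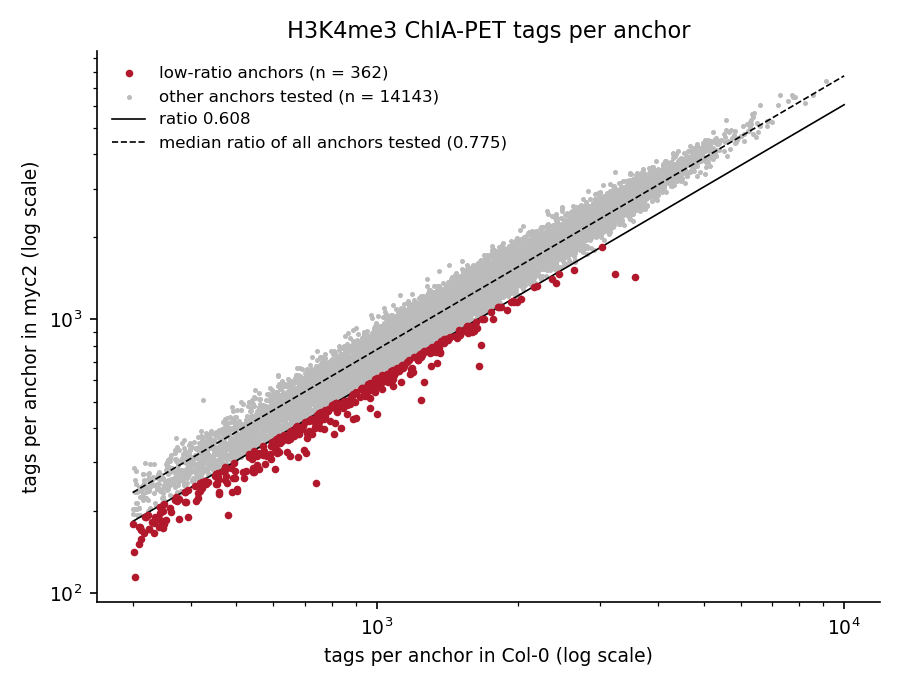
Tags per anchor in *myc2* (vertical, log scale) and in Col-0 (horizontal, log scale); each point is an anchor, red for the 362 low-ratio anchors and grey for the 14143 others, with the limit of 0.608 as a solid line and the median ratio of 0.775 as a broken line. Most red points lie close under the limit at low tag numbers, and a few, among them those with 3562 and 3226 tags in Col-0, lie well under it.

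Low-ratio anchors were mostly weakly covered. Of them, 66.0% had fewer than 1000 tags in Col-0 (61.0 to 70.7%), against 21.7% of the others (21.1 to 22.4%). The share of low-ratio anchors was 13.8% among anchors with 300 to 499 tags in Col-0 (79 of 572), 2.22% with 1000 to 1499 tags (83 of 3733) and 0.227% with 3000 tags or more (3 of 1323). The median tag ratio of all anchors moved in the same direction, being 0.719 in the lowest of these classes and 0.801 in the highest. Counting error is wide where tags are few: for only 60 of the 362 did the whole 95% counting interval of the ratio lie below 0.608. For all 362 it lay below 0.775, but the limit and the minimum of 300 tags fixed this in advance.

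**Figure D2:**
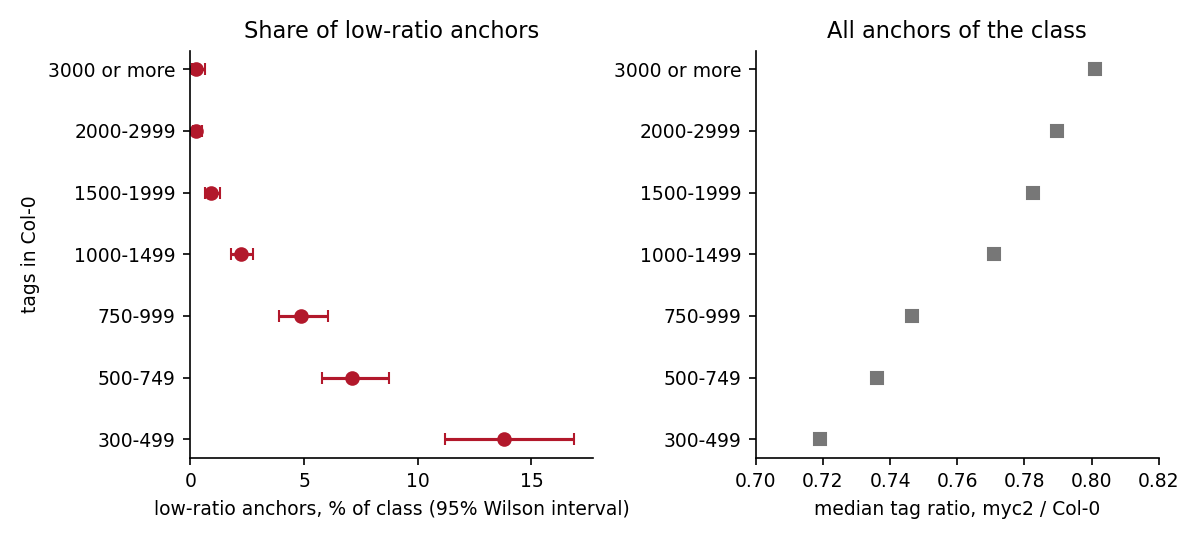
Left, low-ratio anchors as a percentage of all anchors tested in classes of Col-0 tags, with 95% Wilson intervals; right, the median tag ratio of all anchors in the same classes. The share is 13.8% at 300 to 499 tags and 0.227% at 3000 or more, while the median ratio is 0.719 and 0.801.

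The lowest tag ratio of all belonged to 1 of 3 anchors that follow each other on chromosome 2, the longest run of neighbouring low-ratio anchors. The anchor at chr2:1013030-1013884 had 253 tags in *myc2* and 741 in Col-0, a ratio of 0.341 (0.295 to 0.394). It lies near the 3′ end of AT2G03330, which encodes a protein of unknown function, with its centre 4997 bp from the gene start, and 64.6% of it is coding exon. The anchor at chr2:1006420-1007129, over the first part of AT2G03310, had 673 tags in *myc2* and 1653 in Col-0, a ratio of 0.407 (0.372 to 0.446). The anchor at chr2:997745-998399, which lies within the O-fucosyltransferase gene AT2G03280 close to its start, had 509 tags in *myc2* and 1243 in Col-0, a ratio of 0.409 (0.369 to 0.454). All 3 intervals lay below the limit of the rule, but the anchors were selected on this same ratio and the intervals hold counting error only.

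The run had sharp borders. The next anchor to the left, at AT2G03270, had 811 tags in *myc2* and 917 in Col-0, a ratio of 0.884 (0.804 to 0.973). The next to the right, at WRKY3, had 1050 tags in *myc2* and 1320 in Col-0, a ratio of 0.795 (0.733 to 0.863). The 3 low anchors span 16.1 kb, and a further anchor between them, at chr2:1001229-1001662, had 169 tags in Col-0 and no loop in the *myc2* list, so its tags in *myc2* are not known.

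In Col-0 the 3 anchors were joined to each other by 3 loops, of 24, 15 and 14 PETs, and none of these was in the *myc2* list, whose minimum is 5 PETs. The 3 loops to anchors outside the run that both lists held had 15 PETs in *myc2* and 58 in Col-0. Their PET ratio of 0.259 (0.136 to 0.462) has an interval that includes the 0.432 of loops with no low-ratio anchor. One of these, between AT2G03280 and AT2G03270, had 5 PETs in *myc2* and 32 in Col-0. A loop between AT2G03280 and AT2G03240 with 9 PETs was listed in *myc2* alone.

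The low-ratio anchor with most tags in Col-0 was the one within MYC2 (AT1G32640) itself. At chr1:11798986-11801084 it had 1423 tags in *myc2* and 3562 in Col-0, a ratio of 0.399 (0.375 to 0.425). MYC2 is annotated on the minus strand at chr1:11798119-11801407, and 89.2% of the anchor is its coding sequence. The anchor also lies wholly inside the annotated span of AT1G32630, a FAM50A-like gene on the opposite strand, and the tags cannot be divided between them. The anchors on both sides were not in the group: the one to the left had 1731 tags in *myc2* and 2479 in Col-0, a ratio of 0.698 (0.656 to 0.743), and the one to the right had 680 and 872, a ratio of 0.780 (0.704 to 0.863).

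The MYC2 anchor had 3 loops in *myc2* and 7 in Col-0. The strongest in Col-0, with 27 PETs over 28.1 kb, led to AT1G32700, a gene of the PLATZ zinc-binding transcription factor family, and was not in the *myc2* list. AT1G32700 was itself a low-ratio anchor, with 903 tags in *myc2*, 1614 in Col-0 and a ratio of 0.559 (0.515 to 0.607). It had 2 loops in *myc2* and 3 in Col-0. The loop of MYC2 to its nearest neighbour AT1G32610 was kept, with 11 PETs in *myc2* and 26 in Col-0, as was that to AT1G32690, with 7 and 15 PETs. The PET ratio of these 2 loops, 0.439 (0.237 to 0.782), was close to the 0.432 of loops with no low-ratio anchor. Over the whole Col-0 list 32.2% of loops were not in the *myc2* list, but this share depended on PETs. Among loops with no low-ratio anchor it was 65.0% at 10 and 11 PETs, 13.3% at 20 to 24 and 3.40% at 25 to 39. The loops of MYC2 that were not in the *myc2* list had 10 to 27 PETs in Col-0.

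**Figure D3:**
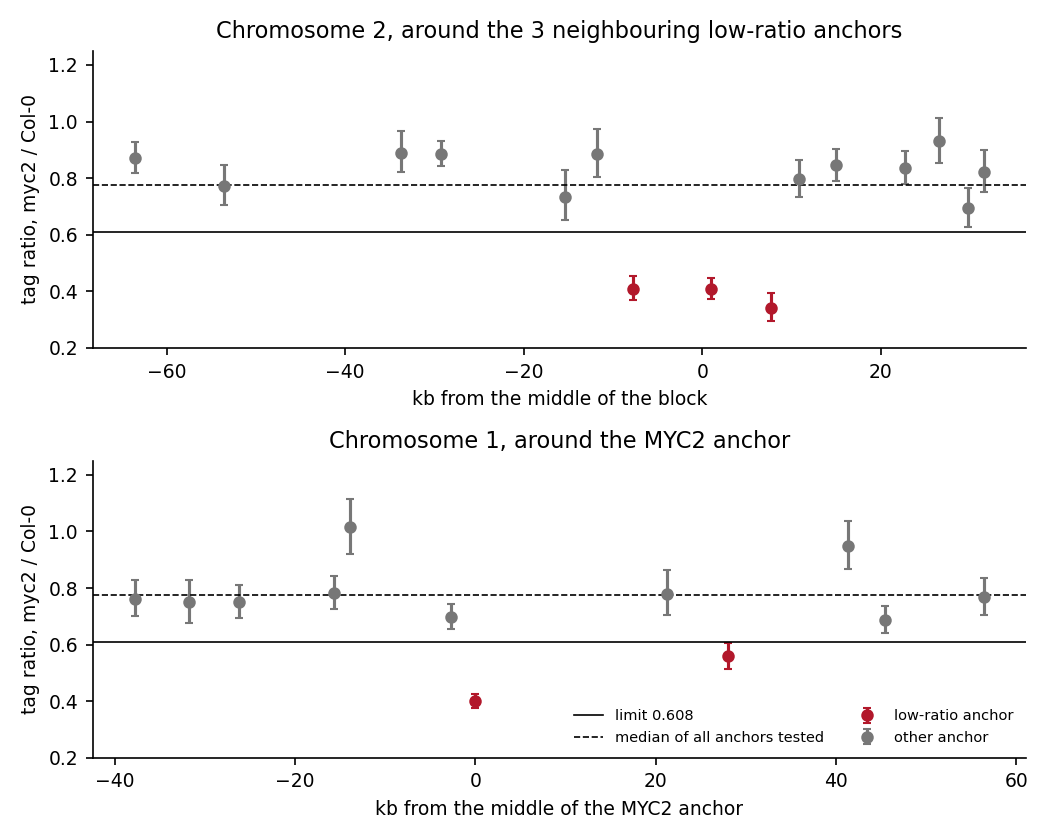
Tag ratio of *myc2* over Col-0 with its 95% counting interval for each anchor, against the distance in kb from the middle of the run on chromosome 2 (top) and from the middle of the MYC2 anchor (bottom); red marks low-ratio anchors. The 3 anchors of the run lie at 0.341 to 0.409 between neighbours at 0.884 and 0.795, and the MYC2 anchor at 0.399 between neighbours at 0.698 and 0.780, with AT1G32700 at 0.559.

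Outside these loci the lowest ratios were scattered over single genes. An anchor on chromosome 2 with no protein-coding gene, which overlaps the annotated long non-coding RNA AT2G06995, had 114 tags in *myc2* and 303 in Col-0, a ratio of 0.376 (0.301 to 0.468). The anchor in the pectate lyase gene AT1G67750, whose product cleaves cell wall pectin, had 193 tags in *myc2* and 481 in Col-0, a ratio of 0.401 (0.338 to 0.475). It had only 1 loop, with 5 PETs in *myc2* and 16 in Col-0. The zinc finger gene AT1G21580 followed with 449 tags in *myc2*, 998 in Col-0 and a ratio of 0.450 (0.402 to 0.503).

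The remaining members of the 15 lowest lay between 0.452 and 0.473. They were MRD1, the RNase P subunit-like gene AT5G41270, the RNA-binding protein gene AT5G51730, the CXC domain gene AT3G04850, AT5G21940, the phosphorylase-like gene AT4G24350, the nudix hydrolase gene NUDX15 and an anchor on chromosome 2 that overlaps only non-coding RNA genes. Among these AT3G04850 had the fewest tags, 141 in *myc2* and 302 in Col-0, and it had 1 loop in *myc2* and 5 in Col-0. AT4G24350 showed the opposite, with 6 loops in *myc2* and 5 in Col-0 beside 283 tags in *myc2* and 604 in Col-0. A low tag ratio was therefore not always accompanied by fewer loops.

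MRD1 (AT1G53480), named for a transcript that is reduced in a methionine-accumulating mutant, combined many tags with many loops. Its anchor at chr1:19963095-19964785 covers the start of the gene and had 1459 tags in *myc2* and 3226 in Col-0, a ratio of 0.452 (0.425 to 0.481). It had 8 loops in *myc2* and 13 in Col-0, the most of any low-ratio anchor in Col-0, and all 8 were also in the Col-0 list. These 8 held 99 PETs in *myc2* and 271 in Col-0. The strongest, to AT1G53500, had 30 PETs in *myc2* and 102 in Col-0. The 5 loops that were not in the *myc2* list had 10 to 24 PETs in Col-0.

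Other well covered or well connected members had ratios closer to the limit. WAVH2, a RING-type ubiquitin ligase of root gravitropism, had 1841 tags in *myc2* and 3034 in Col-0, with 4 loops in *myc2* and 8 in Col-0. The receptor-like kinase gene MEE62 had 1512 tags in *myc2* and 2638 in Col-0, and the linker histone-like gene HON4 had 1458 and 2454. The RING/U-box gene AT3G02340 had 6 loops in *myc2* and 10 in Col-0, and the acyl-activating enzyme gene AT5G16340 had 3 and 9. The BTB/POZ gene AT3G09030 had 9 loops in both lists, with 74 PETs in *myc2* and 194 in Col-0.

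Each anchor was first given to the gene with the largest overlap, with ties going to the gene identifier that sorts first. Of the 12 lists of genes compared, 11 then had no member among the low-ratio anchors. The exception was the list for abscisic acid and drought, with 2 of 13 anchors, where 2.50% of all anchors tested were low-ratio anchors, and a median tag ratio of 0.708, against 0.775 over all anchors. When every gene covering at least 50% of an anchor was counted, the list had 14 anchors and a median of 0.738. ABF4, a bZIP transcription factor that activates abscisic acid-responsive genes, had 519 tags in *myc2* and 921 in Col-0, a ratio of 0.564 (0.505 to 0.628). ABI2, a protein phosphatase 2C that represses abscisic acid signalling, had 930 tags in *myc2* and 1641 in Col-0, a ratio of 0.567 (0.522 to 0.615). Both intervals reach above the limit of 0.608, and the list also held COR15A at 0.875 and HAB1 at 0.854.

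PYL5, an abscisic acid receptor that was not on the list and was named after its values were seen, had 475 tags in *myc2* and 967 in Col-0, a ratio of 0.491. Loops at these 3 genes were few in both lists: ABF4 had 2 in *myc2* and 1 in Col-0, ABI2 had 3 and 4, and PYL5 had 1 and 1. ABF4 and ABI2 had 14 and 24 PETs in *myc2*, against 14 and 77 in Col-0.

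No gene of jasmonate signalling was a member under that rule. The MYC2 anchor lies wholly in both MYC2 and AT1G32630, and this tie went to AT1G32630 only by the order of gene identifiers. Without that anchor, the 17 anchors of this list had a median tag ratio of 0.838 with a range of 0.648 to 0.936. When every gene that covered at least 50% of an anchor was counted, MYC2 itself was the 1 member of its list. Jasmonate biosynthesis (15 anchors, median 0.798), jasmonate and wound response (6 anchors, 0.811), the circadian clock (14 anchors, 0.808), light harvesting and Rubisco (17 anchors, 0.768), auxin response (12 anchors, 0.767), glucosinolate synthesis (9 anchors, 0.782) and rapid touch, cold and wound response (14 anchors, 0.773) had none. As a check of the tissue, all 6 leaf markers had an anchor tested, with a median ratio of 0.761, and 1 of 6 root markers did, PRP3, at 0.784. With 2.50% of all anchors in the group, lists of this size would hold few members or none, so their absence says little.

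Low-ratio anchors lay beside another low-ratio anchor about as often as other anchors did. Of the 362, 13 (3.59%, 2.11 to 6.05%) had another low-ratio anchor directly beside them, against 698 of the 14143 others (4.94%, 4.59 to 5.31%). The intervals overlapped. Besides the run of 3, there were 5 pairs, among them AT2G40160 with AT2G40200, AT3G22190 with AT3G22200 and AT5G01770 with AT5G01780. The 724 anchors directly beside a low-ratio anchor had a median ratio of 0.768. Further away the share of low-ratio anchors had no steady course, beside 2.50% in the series. It was 4.14% at 4 anchors away (30 of 724, 2.92 to 5.85%) and 0.553% at 5 anchors away (4 of 724, 0.215 to 1.41%). Each pair of low-ratio anchors is counted from both sides here, so these 2 intervals are too narrow. The share of low-ratio anchors was lowest on chromosome 4 (36 of 2184, 1.65%) and highest on chromosome 3 (81 of 2914, 2.78%).

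Few of the anchors to which they were joined were low-ratio anchors. Low-ratio anchors had 1117 distinct partner anchors in Col-0, and of the 1092 that could be tested 11 were low-ratio anchors themselves (1.01%, 0.563 to 1.79%), against 2.50% of all anchors tested. Anchors with many loops are more often partners. Over all anchors tested the share of low-ratio anchors was 6.00% at 1 loop in Col-0 and 0.304% at 8 or more. The part of loop number in the share among partners was not tested. The 1081 other partners that could be tested had a median ratio of 0.779, against 0.778 for all anchors outside the group. Only 7 loops of Col-0 joined a pair of low-ratio anchors: the 4 at MYC2 and on chromosome 2 described above, AT1G67850 with AT1G67880 (12 PETs), AT5G21430 with AT5G21940 (10 PETs) and AT5G56250 with AT5G56270, the gene of WRKY2 (10 PETs). Of the 7, only the last was in the *myc2* list, with 5 PETs.

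Loops at low-ratio anchors were followed in both lists, with the caution that PETs and tags come from the same libraries and so are not independent of the rule. Of 1166 Col-0 loops with at least 1 low-ratio anchor, 487 were not in the *myc2* list (41.8%, 39.0 to 44.6%). Over all Col-0 loops 32.2% were not, and over those with no low-ratio anchor 31.9% (31.4 to 32.4%). Of 862 *myc2* loops within a chromosome at low-ratio anchors 183 were not in the Col-0 list (21.2%, 18.6 to 24.1%), against 22.3% over all such *myc2* loops. Loops between chromosomes were left out of this share because the Col-0 list held none. The 679 loops in both lists held 5316 PETs in *myc2* and 13322 in Col-0, a PET ratio of 0.399 (0.387 to 0.412), against 0.432 (0.430 to 0.434) for the other loops.

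The share absent fell with the strength of a loop in Col-0 in both sets, and the difference between the sets varied over the classes. Among loops of 10 and 11 PETs, 68.2% of those at low-ratio anchors were absent from *myc2* (62.3 to 73.5%), against 65.0% of the others (63.9 to 66.1%), and the intervals overlapped. They also overlapped at 12 to 14 PETs, with 51.3% (45.8 to 56.7%) and 49.5% (48.3 to 50.6%). At 15 to 19 PETs they were just apart, with 35.8% (30.5 to 41.5%) and 29.2% (28.2 to 30.3%). Among loops of 20 to 24 PETs it was 23.1% at low-ratio anchors (16.7 to 31.0%) and 13.3% elsewhere (12.4 to 14.3%). In the class of 25 to 39 PETs it was 7.90% (4.57 to 13.3%) and 3.40% (2.97 to 3.89%), and the intervals of both sets were apart in both classes. Of the loops of at least 40 PETs, 0 of 17 at low-ratio anchors were absent from *myc2* (upper bound 18.4%) and 3 of 2614 elsewhere. Their PET ratio was 0.282 (0.244 to 0.324) at low-ratio anchors and 0.395 (0.391 to 0.399) elsewhere. The intervals of the absent share were thus apart at 15 to 39 PETs and overlapped in the other classes. With 17 loops at low-ratio anchors, the class of at least 40 PETs could show little. Loops that share an anchor are not independent, and the rule used tags of the same libraries, so these intervals are no test.

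**Figure D4:**
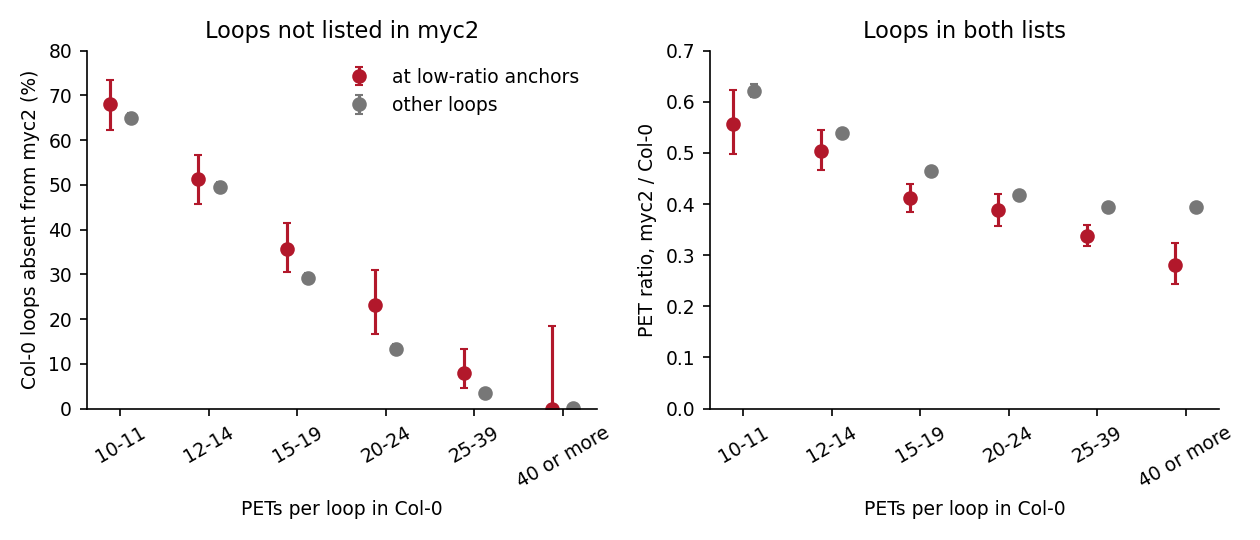
Left, percentage of Col-0 loops absent from the *myc2* list, with 95% Wilson intervals; right, PETs in *myc2* divided by PETs in Col-0 for loops in both lists, with 95% counting intervals, by classes of PETs per loop in Col-0. Red is loops at low-ratio anchors and grey is all other loops: the PET ratio is lower in red in every class and is 0.282 and 0.395 at 40 PETs or more.

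Span made less difference to the order. Loops at low-ratio anchors were absent from *myc2* more often in each class of span, from 29.1% under 5 kb (others 18.7%) to 68.0% at 20 to 40 kb (others 54.1%). The 14 loops of 40 kb or more lost 13, against 73.8% of the others in that class, where 1 loop decides several percentage points. Loops with a tag ratio at both anchors were also sorted by the lower of them. Below 0.5, 46.3% of 95 loops were absent from *myc2* (36.6 to 56.3%), and from 0.608 to 0.7, 35.5% of 7742 were (34.5 to 36.6%). At 0.9 or above it was 13.9% of 144 (9.17 to 20.5%). The absent share thus fell from class to class of this ratio, with no break at the limit. The ratio is the one the rule used and comes from the same libraries, and PETs per loop were not held equal in this sorting.

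Counted per anchor, 210 low-ratio anchors had fewer loops in *myc2* than in Col-0, 100 had the same number and 52 had more, with changes of -6 to 3. The share with fewer loops was 58.0% (52.9 to 63.0%), against 49.8% of the others (49.0 to 50.6%). The median change was -1 for low-ratio anchors, 0 for the others and -1 over all anchors tested. With a minimum of 10 PETs in both lists it was -3 for low-ratio anchors and -3 for the others, so that this difference was gone. The medians were 2 loops in *myc2* and 3 in Col-0 for low-ratio anchors, and 4 and 5 for the others. The ARM repeat gene AT5G11550 had the most loops in *myc2* alone, 4 of its 10 in *myc2*, and 8 loops in Col-0. The hydrolase gene AT1G10740, the histone acetyltransferase gene HAG2 and the EXS family gene AT1G14040 each had 3 loops in *myc2* alone, and AT1G14040 had 4 loops in *myc2* and 1 in Col-0. Since the *myc2* list starts at fewer PETs, a loop present there alone may exist in Col-0 below 10 PETs.

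The position of low-ratio anchors in genes differed a little from that of the others. Of them, 38.4% covered an annotated gene start (33.5 to 43.5%), against 48.2% of the others (47.4 to 49.1%). An overlap with 2 or more promoters was found in 18.0% (14.3 to 22.2%), against 25.7% (24.9 to 26.4%), where a promoter is the stretch from 1 kb before to 0.5 kb after a gene start. The centre lay a median of 433 bp inside the gene, against 440 bp, and 10 of the 362 had no protein-coding gene. They were also narrower, with a median of 820 bp, against 902 bp. Narrow anchors and anchors with few tags go together, and the part of width and tag number in these shares was not tested.

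G-boxes were about as frequent in low-ratio anchors as in others. The word CACGTG, counted on both strands over the whole anchor, was in 49 of the 362 (13.5%, 10.4 to 17.4%) and in 12.3% of the other anchors (11.8 to 12.9%). Within classes of width it was in 14.4% of low-ratio anchors (9.19 to 21.9%) and 8.62% of the others (7.84 to 9.46%) at 750 to 999 bp, and in 21.8% (14.1 to 32.2%) and 15.6% (14.5 to 16.9%) at 1000 to 1499 bp. It was in 5.15% and 6.16% of narrower anchors and in 26.7% and 27.0% of wider ones, and the intervals overlapped in all 4 classes. Among all anchors tested 1790 held a G-box, and their median tag ratio was 0.765, against 0.777 for those without. Of anchors with a G-box 2.74% were low-ratio anchors. The anchor within MYC2 and the 3 of the run on chromosome 2 had no G-box, and of the 15 lowest only AT1G67750, AT5G21940 and NUDX15 had one.

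By the share of anchors with at least 1 site, most other words were less frequent in low-ratio anchors. The exception was the GAGA repeat, in 82.9% (78.7 to 86.4%), against 81.6% of the others (80.9 to 82.2%). Per kb, low-ratio anchors had more sites than the others for TATAAA (0.978 against 0.937), GAAGAA (4.05 against 3.89) and GAGAGA (3.31 against 2.97). They had fewer per kb for CACATG, the telo box and site II. The variant CACATG was in 18.0% (14.3 to 22.2%), against 24.7% of the others (24.0 to 25.4%). The telo box was in 21.5% (17.6 to 26.1%), against 29.8% (29.0 to 30.5%), and a site II word in 25.7% (21.5 to 30.4%), against 32.7% (31.9 to 33.4%). Telo boxes and site II words are promoter elements known from ribosomal protein genes. Wider anchors hold more words of any kind, so shares were compared within classes of width. From 1000 to 1499 bp the telo box was in 20.5% of 78 low-ratio anchors, with an upper bound of 30.8%, and in 30.0% of the others (28.5 to 31.5%). Its intervals overlapped in every class. Those of CACATG and site II overlapped below 1500 bp and were apart among the wider anchors, with 30 low-ratio anchors. There CACATG was in 23.3% (11.8 to 40.9%), against 45.8% of the others (43.6 to 48.0%). A site II word was in 30.0% (16.7 to 47.9%), against 52.9% (50.7 to 55.1%). The 362 anchors with the highest tag ratio had a telo box in 37.6% (32.7 to 42.7%) and a G-box in 6.91% (4.72 to 10.0%).

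**Figure D5:**
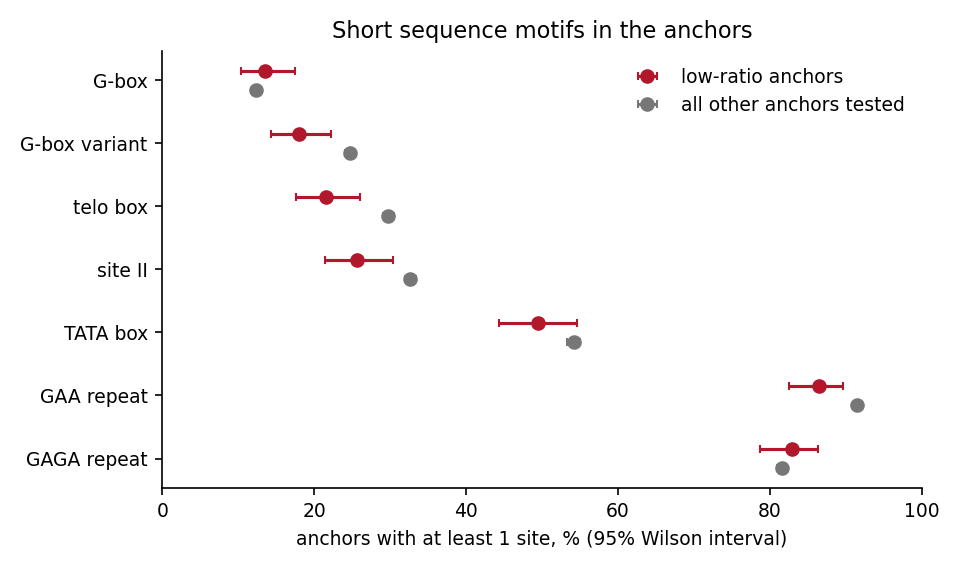
Percentage of anchors with at least 1 site of each word on either strand, with 95% Wilson intervals, for the 362 low-ratio anchors (red) and the 14143 others (grey); GAA and GAGA repeats stand for GAAGAA and GAGAGA. The G-box shares are 13.5% and 12.3%, and those of the telo box 21.5% and 29.8%.

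Base composition showed one further difference. The share of low-ratio anchors was 3.69% in the fifth of anchors with the highest GC content (107 of 2901, 3.06 to 4.44%), and between 1.96 and 2.41% in the other 4 classes. The median GC content was 40.4% in low-ratio anchors and 39.6% in the others. Over the same classes the median tag ratio of all anchors was 0.753 in the highest and 0.785 in the lowest. GC content therefore moved with the tag ratio over the whole series, and its part in the low ratios was not tested.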

How the data were processed

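H3K4me3 ChIA-PET was measured in 4 samples, 2 of each genotype. Per the methods, the authors ran ChIA-PET Tool V3 (linker filtering, mapping to TAIR10, removal of redundant PETs, clusters between given anchors). The anchors given were H3K4me3 ChIP-seq peaks, merged over both genotypes, and clusters were kept at an FDR under 0.05. The aligner is not given in those methods. A deposited list gives, for each loop, a raw PET count and the raw tag count of both anchors, neither of them scaled. Further deposited columns are a flag for loops within a chromosome, the span, a p-value with its FDR, and −log10 of each, of which the FDR was used in 1 alternative.

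Anchors and loops were matched by identical coordinates. Members and gene lists were chosen with earlier results of these data known. The members were selected on the tag ratio, so no test was made on it, and 1 list per genotype allows none between genotypes. Shares have 95% Wilson intervals, and ratios have intervals from the exact binomial share of *myc2*, both for counting error only. An anchor was given to the protein-coding gene (RefSeq TAIR10.1, 1 kb upstream to its end) that covered most of it, at least 50%. Ties went to the gene identifier that sorts first. The sources do not say whether coordinates count from 0 or 1, which shifts a window by 1 base. Named genes are the 15 lowest ratios, 5 on each side of the limit, the 5 with most Col-0 tags, most Col-0 loops or most loops in *myc2* alone, members on gene lists, the longest run and the 5 strongest loops between members. Other named genes were chosen after their values were seen. Counting functions were tested on simulated data. Alternatives were other tag and PET minimums, other overlaps, other windows and other gene rules. Scripts ran under Python 3.11.15 (scipy 1.17.1, numpy 2.4.6, matplotlib 3.10.9, pandas 2.3.3).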

Additional observations from a re-analysis of the deposited data

Results flagged for a closer look

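Loops between chromosomes were outside the comparisons above and were listed for *myc2* only. The *myc2* list held 256 such loops, 3 of them at low-ratio anchors, and the Col-0 list held 0. Of the 256 only 1 had at least 10 PETs, the minimum of the Col-0 list, so that lists with an equal minimum would hold 1 in *myc2* and 0 in Col-0. One of the 3, with 5 PETs, joined the low-ratio anchors of ARR15 (AT1G74890), a response regulator of cytokinin signalling, and HON4 (AT3G18035).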

How the results depend on the processing

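No paired analysis was possible because the authors combined the replicates of each genotype, and for the same reason leaving out a replicate could not be run. Of 21 alternatives 11 left a value within its counting interval or within 1.5 times its count. These include matching by overlap and the FDR under 0.001, which left the number of loops or anchors unchanged and so could hardly move a value. Of the 16 alternatives that were also computed for the other anchors or loops, 13 kept low-ratio anchors on the same side of them. The 2 other windows for the G-box put them on the other side, and the equal PET minimum left no difference in the median change in loops. The last 5 given were chosen after the data had been seen.

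The number of low-ratio anchors was 362, was 123 of 11194 with at least 1000 tags in Col-0, and was 60 when the upper bound had to lie below the limit. Anchors matched by overlap gave 362 again, with 14505 anchors tested as before. The PET ratio of 0.399 was 0.445 for loops of at least 10 PETs in both lists (others 0.467) and 0.346 for loops of at least 20 PETs in Col-0 (others 0.400). The share of loops absent from *myc2*, 41.8%, was 14.05% at 20 PETs or more in Col-0 (others 6.24%). It was also 41.8% with an FDR under 0.001 and with matching by overlap, but both kept all 1166 loops, so these alternatives say nothing on stability. The median change in loops per anchor, -1, was -3 with a minimum of 10 PETs in both lists, and also -3 for the other anchors. The share with a G-box, 13.5%, was 3.04% in the 300 bases around the centre (others 3.57%) and 8.81% in the promoter window of the gene, 250 bases before to 50 after the start (others 8.94%). For the 60 anchors whose upper bound lay below the limit the PET ratio was 0.375, the absent share 44.7% and the G-box share 13.3%. Without the 3 neighbouring anchors of chromosome 2 the PET ratio was 0.400 and the absent share 41.6%.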

Other observations

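Genes named for DNA repair, replication or recombination were frequent among the low-ratio anchors. The group was noticed after the members had been listed and was then taken by words of the product names, so it carries no test. Of 98 such anchors tested, 13 were low-ratio anchors (13.3%, 7.92 to 21.4%), against 349 of the 14407 other anchors (2.42%, 2.18 to 2.69%). Among the 13 were the genes of the polymerase delta subunits POLD2 (498 tags in *myc2*, 852 in Col-0) and POLD4 (645 and 1073), the clamp loader subunit RFC1 (557 and 981), the base excision repair scaffold ATXRCC1 (218 and 370), the recombination protein XRCC2 (1104 and 1818) and the meiotic protein MSH4 (254 and 436). The product names of 2 others, AT5G12900 and AT5G25590, were taken as annotated.

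The whole group of 98 had a median tag ratio of 0.719, against 0.776 for the other anchors, and 1188 tags in Col-0, against 1529. Below 1000 tags in Col-0, 9 of 40 were low-ratio anchors (22.5%, 12.3 to 37.5%), against 230 of 3271 others (7.03%, 6.21 to 7.96%). From 1000 tags upward the counts were 4 of 58 (6.90%, 2.71 to 16.4%) and 119 of 11136 (1.07%, 0.894 to 1.28%). A part of sequence, width or GC content in this was not tested.

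Beside the 2.50% of all anchors tested, genes of ribosomal proteins had 2 of 257 anchors (0.778%, 0.214 to 2.79%) and a median tag ratio of 0.811. Transporter genes had 11 of 242 (4.55%, 2.56 to 7.96%), pentatricopeptide repeat genes 7 of 180 (3.89%, 1.90 to 7.81%), and kinase genes 14 of 891 (1.57%, 0.938 to 2.62%). The intervals of the ribosomal protein, pentatricopeptide repeat and kinase genes include 2.50%, and that of the transporter genes starts just above it. Further families were compared, with no correction for their number. Products named uncharacterized or unknown, a group added later, had 36 of 855 anchors (4.21%, 3.06 to 5.77%).

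A tag ratio needs a loop in both lists. A further 535 anchors that passed the minimum of 300 tags had no loop in the *myc2* list, so their tags in *myc2* are not known and they could not enter the group. These 535 anchors had a median of 684 tags and 1 loop in Col-0. Counted whatever their tags, 649 anchors of Col-0 had no loop in *myc2*.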
